A study of Arabidopsis thaliana with 12 samples.

Results

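Leaves of the Arabidopsis thaliana line TPR1-GFP sid2-1 were compared with leaves of the Col-0 wild type by RNA sequencing. The 6 libraries of the comparison, 3 of each genotype, were taken by their genotype label and by no measured value, out of 12 libraries in the study. TPR1-GFP sid2-1 plants carried a TPR1-GFP transgene under the TPR1 promoter together with the sid2-1 allele of ICS1, a loss-of-function point mutation. The other libraries came from TPR1-GFP plants and TPR1-GFP eds1-2 plants, 3 of each, and Col-0 carried neither the transgene nor an introduced mutation. All plants were untreated and 5 weeks old, and had grown with 10 h of light a day at 22 °C and 60% humidity. No sid2-1 plants without the transgene were sampled, so in the comparison with Col-0 the transgene and the allele change together and their parts cannot be told apart. The comparison asks which of the changes seen in plants with extra TPR1 are present when isochorismate-derived salicylic acid cannot be made.

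TPR1 belongs to the TOPLESS family of transcriptional co-repressors, which bind DNA only through transcription factors. ICS1 is the chloroplast enzyme that supplies isochorismate for salicylic acid, a defence hormone of leaves, and sid2 mutants make very little of it. Salicylic acid acts through NPR1 and TGA factors on genes such as PR1, and EDS1 with PAD4 works upstream of and beside it. The pathway of jasmonate and ethylene, with the factors ORA59 and ERF1 and the defensin gene PDF1.2A, is known to be held back by salicylic acid.

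The 12 libraries held 19628974 to 32018583 counts each. Values below are CPM (counts scaled to a fixed library total) after TMM scaling. Differences are log2 changes with standard errors, and adjusted p-values come from edgeR's quasi-likelihood test with Benjamini-Hochberg adjustment over 18877 genes, called at under 0.05. The labels do not say that the libraries came from separate plantings, so a p-value here reflects library-to-library spread alone. Col-0 replicate 1 stood apart from the other Col-0 libraries in immune genes. It was the highest Col-0 library for 20 of 22 salicylic acid response genes, for 14 of 18 genes of pattern-triggered immunity and for all 14 genes of endoplasmic reticulum folding, against 32.5% of all genes. Values without it stand beside many of the results it moved.

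TPR1 itself was measured first, as a check of the line. It had 776, 1305 and 1222 CPM in TPR1-GFP sid2-1 leaves, against 74.1, 73.5 and 68.3 CPM in Col-0 leaves. The lowest sid2-1 line library lay above every Col-0 library by more than the spread within either group (log2 change 3.94 ± 0.20, adjusted p = 5.57e-07). The counts pool the native gene with the transgene. In TPR1-GFP leaves the gene had 1539, 1748 and 1617 CPM, and the sid2-1 line was lower than that by a log2 change of -0.57 (adjusted p = 0.0433), a call that was lost in 5 of the fits that leave out 1 library. Against the eds1-2 line the log2 change was -0.03. Since sid2-1 is a point mutation, the count of ICS1 does not test the genotype.

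Over all genes, 4178 were higher and 3762 lower in TPR1-GFP sid2-1 than in Col-0, which is 42.1% of those tested, 22.1% higher and 19.9% lower. These shares are the background for the counts of list members called against Col-0 below. The fold sizes were uneven between the directions. Of the called genes, 1947 were higher and 775 lower by at least 1 log2 unit, and 888 were higher and 124 lower by at least 2 log2 units. The deposited table holds no gene with fewer than 101 counts over the 12 libraries. A weakly expressed gene present in Col-0 alone therefore reaches it less readily than a gene present in several genotypes. The part of this limit in the unevenness was not tested. The 6 libraries of the groups did not overlap for 53.8% of genes. Without scaling beyond the library total the split was 6224 higher and 1910 lower, and the median change of all genes was 0.17 instead of -0.0038. These are whole leaves, where fewer cells of a type and less RNA per cell cannot be told apart. TPR1-GFP against Col-0, which uses the same Col-0 libraries, gave 5192 higher and 4979 lower (53.9%). Tested directly, TPR1-GFP sid2-1 differed from TPR1-GFP in 3179 genes (16.8%), of which 1832 were higher (9.7%) and 1347 lower (7.14%) in the sid2-1 line. That number was 1172 without TPR1-GFP replicate 2, 1329 without TPR1-GFP replicate 3, and 1576, 1434 and 2027 without replicate 1, 2 and 3 of the sid2-1 line. Against TPR1-GFP eds1-2, 3687 genes were higher and 2813 lower in the sid2-1 line, 34.4% of those tested (19.5% higher and 14.9% lower).

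**Figure D1:**
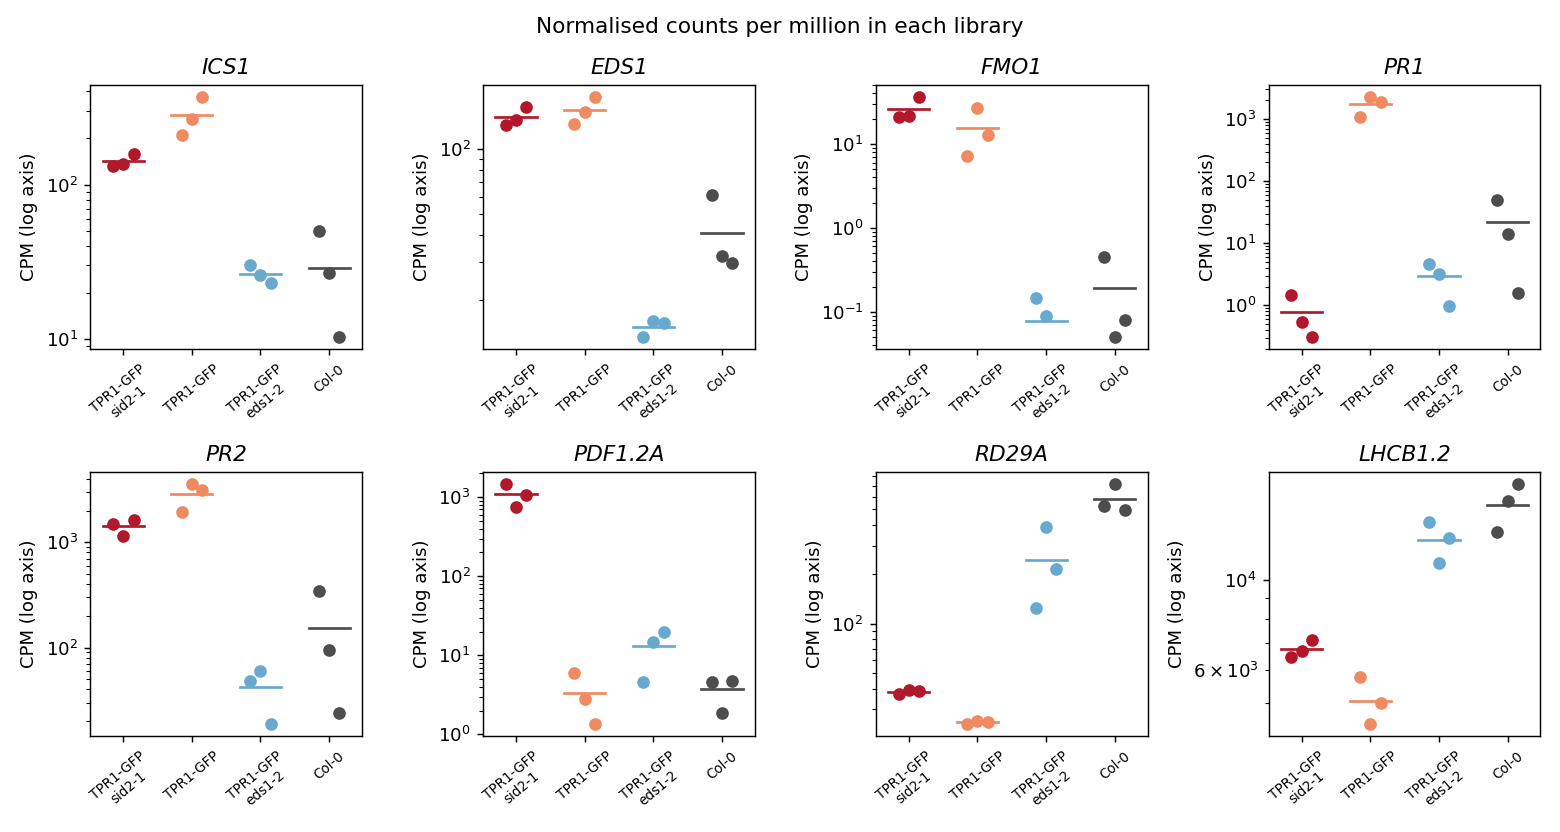
CPM of 8 genes in each library on a log axis, with the 4 genotypes along the horizontal axis in the order TPR1-GFP sid2-1, TPR1-GFP, TPR1-GFP eds1-2 and Col-0. Points are libraries and lines are group means, and a library at 0 (FMO1 in TPR1-GFP eds1-2 replicate 3) is not drawn. PR1 was at 0.304 to 1.46 CPM in the sid2-1 line and at 1092 to 2272 CPM in TPR1-GFP, while PDF1.2A was at 760.1 to 1479 CPM in the sid2-1 line and at 1.89 to 4.77 CPM in Col-0.

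The stretches from 250 bases before to 50 bases after the annotated start are shown for 4 genes whose levels set the sid2-1 line apart or stayed changed in it, each 5′ to 3′ on the gene's own strand, from the RefSeq annotation of the genome build TAIR10.1. PDF1.2A is a marker of the jasmonate and ethylene pathway, FMO1 of N-hydroxypipecolic acid, ICS1 of salicylic acid synthesis and COR15A of cold and abscisic acid. They lie at chr5:17907589-17907888 (minus strand), chr1:6653146-6653445 (minus), chr1:28070045-28070344 (plus) and chr2:17712281-17712580 (minus), in that order. Capitals mark matches on either strand to TTGAC (the core of the W-box bound by WRKY factors), TGACG (the core bound by TGA factors), CCGAC (the drought and cold response core), CACGTG (the G-box) and GCCGCC (the GCC-box bound by ERF factors).
PDF1.2A: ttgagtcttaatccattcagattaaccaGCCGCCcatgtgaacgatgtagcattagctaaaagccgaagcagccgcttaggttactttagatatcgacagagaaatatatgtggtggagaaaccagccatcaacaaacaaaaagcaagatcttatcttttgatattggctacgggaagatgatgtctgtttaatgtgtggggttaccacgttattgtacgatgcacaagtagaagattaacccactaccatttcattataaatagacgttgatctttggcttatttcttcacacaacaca
FMO1: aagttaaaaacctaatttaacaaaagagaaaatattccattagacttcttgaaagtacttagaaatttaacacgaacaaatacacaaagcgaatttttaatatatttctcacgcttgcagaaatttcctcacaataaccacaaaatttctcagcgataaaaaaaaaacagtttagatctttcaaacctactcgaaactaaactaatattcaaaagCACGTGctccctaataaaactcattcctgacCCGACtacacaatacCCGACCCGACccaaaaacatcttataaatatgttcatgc
ICS1: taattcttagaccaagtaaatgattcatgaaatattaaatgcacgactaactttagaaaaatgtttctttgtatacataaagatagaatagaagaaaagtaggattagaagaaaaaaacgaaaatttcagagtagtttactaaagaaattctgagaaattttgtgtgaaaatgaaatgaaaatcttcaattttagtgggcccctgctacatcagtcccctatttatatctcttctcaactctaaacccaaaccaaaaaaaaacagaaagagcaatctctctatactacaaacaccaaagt
COR15A: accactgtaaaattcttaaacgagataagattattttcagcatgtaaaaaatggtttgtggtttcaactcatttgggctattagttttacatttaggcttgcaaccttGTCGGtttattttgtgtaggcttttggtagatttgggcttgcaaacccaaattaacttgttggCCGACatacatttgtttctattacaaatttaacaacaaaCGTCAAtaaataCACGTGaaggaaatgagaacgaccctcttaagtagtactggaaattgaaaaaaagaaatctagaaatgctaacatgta

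The PDF1.2A stretch held GCCGCC 222 bases before the start. FMO1 held CACGTG 35 bases before the start and 3 matches to CCGAC around it, ICS1 held no match, and COR15A held CCGAC 2 times, CACGTG once and TTGAC and TGACG as 1 overlapping match. These are matches of letters and not shown to be bound sites. Of 18769 promoters of tested genes read in the same window, 50.8% held TTGAC, against 58.8% of the promoters of genes higher and 46.7% of those lower in the sid2-1 line than in Col-0. TGACG stood in 23.9% of all promoters, 26% of those of the higher and 23.5% of those of the lower genes. CCGAC stood in 16.5% of all, 13.6% of the higher and 18.8% of the lower, CACGTG in 8.81%, 8.93% and 9.15%, and GCCGCC in 2.69%, 2.91% and 2.03%. For genes that differed between the sid2-1 line and TPR1-GFP, GCCGCC stood in 3.86% of those higher and 1.26% of those lower in the sid2-1 line. These shares are descriptions without a test.

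Genes of salicylic acid synthesis were higher in TPR1-GFP sid2-1 although the sid2-1 allele blocks the pathway. Of 12 genes tested, 8 rose and 1 fell, with a median log2 change of 1.76 against -0.0038 over all genes. ICS1 had 132, 136 and 157 CPM in TPR1-GFP sid2-1, against 49.9, 26.6 and 10.3 CPM in Col-0. The groups did not overlap, and the spread was wider in Col-0 (2.30 ± 0.43, adjusted p = 0.00169, and 2.95 without Col-0 replicate 1). PBS3, whose enzyme joins isochorismate to glutamate, had 144, 149 and 197 CPM in the sid2-1 line, against 13.8, 4.12 and 7.07 CPM in Col-0 (4.30 ± 0.42, adjusted p = 3.66e-05). EDS5, the transporter that carries isochorismate out of the chloroplast, had 93.5, 96.8 and 121 CPM in the sid2-1 line, against 12.7, 5.42 and 6.18 CPM in Col-0 (3.69 ± 0.34, adjusted p = 2.62e-05). For both genes every sid2-1 line library was above every Col-0 library. ICS1 is switched on by the transcription factors CBP60G and SARD1. CBP60G had 199, 193 and 217 CPM in the sid2-1 line, against 31.5, 24.4 and 16.0 CPM in Col-0 (3.08 ± 0.27, adjusted p = 1.78e-05), and SARD1 rose by 2.43 ± 0.44 (3.23 without Col-0 replicate 1). WRKY28, another activator of ICS1, rose by 2.86, EPS1, which acts after PBS3, by 1.23, and PAL2, of the phenylalanine route, by 0.54. PAL1, PAL3 and PAL4 of the same route did not pass the test, with log2 changes of 0.30, 0.03 and 0.10.

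The gene that fell was ICS2, the lowly expressed second isochorismate synthase. It had 1.31, 1.65 and 2.23 CPM in TPR1-GFP sid2-1, against 13.4, 16.9 and 20.0 CPM in Col-0. The groups stood far apart relative to their spread (-3.25 ± 0.21, adjusted p = 2.46e-06). Against TPR1-GFP, ICS1 in the sid2-1 line did not pass the test (-0.99 ± 0.40, adjusted p = 0.114; TPR1-GFP had 208, 266 and 368 CPM), WRKY28 was higher by 1.90 (adjusted p = 0.00291) and ICS2 by 1.28 (adjusted p = 0.0072). Against the eds1-2 line, where ICS1 had 30, 25.9 and 23.3 CPM, ICS1 was higher by 2.43 ± 0.43 (adjusted p = 0.00144). Of 5 genes of salicylic acid turnover, UGT74F2, a glucosyltransferase for salicylic acid, rose against Col-0 by 1.2 ± 0.18 (adjusted p = 0.000365), and 4 rose when Col-0 replicate 1 was left out. UGT76B1, another glucosyltransferase, missed the call at 1.49 (adjusted p = 0.164) and passed it without Col-0 replicate 1 at 3.56 (adjusted p = 0.0124).

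Downstream of the hormone the response genes split. Of 22 salicylic acid response genes tested, 9 rose and 2 fell against Col-0 with a median of 0.03, a value that was -0.01 under upper-quartile scaling. In TPR1-GFP against Col-0, with the same Col-0 libraries, 22 rose and the median was 2.79. The count depended on Col-0 replicate 1, without which 12 rose and 1 fell and the median was 0.69. The direct test against TPR1-GFP gave 16 of 22 lower and 0 higher in the sid2-1 line (median -1.35), or 12 to 16 in fits that leave out 1 library. Their summed level and that of 3 other lists are drawn in the plot of summed levels by library.

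PR1, a secreted protein gene and the standard marker of the pathway, had 1.46, 0.537 and 0.304 CPM in TPR1-GFP sid2-1, 1092, 2272 and 1855 CPM in TPR1-GFP, 4.62, 3.16 and 0.953 CPM in TPR1-GFP eds1-2, and 49.2, 14.3 and 1.58 CPM in Col-0. The sid2-1 line lay below every Col-0 library, with its highest library just under the lowest Col-0 library. The log2 change against Col-0 was -4.91 ± 1.11 (adjusted p = 0.00511), or -3.44 without Col-0 replicate 1 and -5.70 without replicate 1 of the sid2-1 line. Against TPR1-GFP it was -11.24 ± 1.28 (adjusted p = 0.00058, and -12.04 without replicate 1 of the sid2-1 line), and against the eds1-2 line it did not pass the test (-2.02 ± 1.2, adjusted p = 0.214).

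PR2 and PR5, the other classical markers, did the opposite of PR1. PR2 encodes a secreted glucanase and had 1484, 1156 and 1631 CPM in TPR1-GFP sid2-1, 1927, 3599.9 and 3152 CPM in TPR1-GFP, 48.2, 59.9 and 18.8 CPM in TPR1-GFP eds1-2, and 347, 94.2 and 23.9 CPM in Col-0. All 3 sid2-1 line libraries exceeded the highest Col-0 library (3.20 ± 0.76, adjusted p = 0.00687, and 4.59 without Col-0 replicate 1). PR5 encodes a thaumatin-like protein and had 1133, 985 and 1359 CPM in TPR1-GFP sid2-1, 2046, 3067 and 3117 CPM in TPR1-GFP, 145, 143 and 176 CPM in TPR1-GFP eds1-2, and 335, 160.0 and 183 CPM in Col-0. Its groups did not overlap either (2.36 ± 0.27, adjusted p = 8.37e-05). Against TPR1-GFP, PR5 was lower at -1.24 ± 0.26 (adjusted p = 0.0103) and PR2 did not pass the test (-1.02 ± 0.71, adjusted p = 0.335). Against the eds1-2 line PR2 was higher by 5.07 and PR5 by 2.90 (adjusted p = 0.000948 and 2.03e-05).

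WRKY38, which encodes a WRKY factor induced through NPR1, was the other response gene that fell. It had 1 count over the 3 TPR1-GFP sid2-1 libraries, 1843 over the TPR1-GFP libraries, 140 over the TPR1-GFP eds1-2 libraries and 83 over the Col-0 libraries. The ratio of Col-0 over the sid2-1 line was 94.4 with a counting interval of 16.5 to 3770. The adjusted p was 0.0178 (fitted log2 change -6.15, or -4.47 without Col-0 replicate 1, -6.74 without Col-0 replicate 3 and -8.01 without replicate 2 of the sid2-1 line), and the call was lost without Col-0 replicate 1 (0.0716) and without any 1 of the sid2-1 line libraries (0.0512 to 0.0600). Among the genes that rose were WRKY46, a WRKY factor gene induced early in immunity, by 3.22 ± 0.41 (3.98 without Col-0 replicate 1), PNP-A, a plant natriuretic peptide gene, by 2.78 ± 0.46 (3.45), and NPR1 by 0.52 (adjusted p = 0.0065). The other 11 did not pass the test. WRKY70, which encodes a factor between the salicylic acid and jasmonate pathways, had 78.1, 85.1 and 84.5 CPM in the sid2-1 line, 120.1, 234 and 234 CPM in TPR1-GFP leaves, and 95.9, 77.6 and 77.7 CPM in Col-0. Its sid2-1 line and Col-0 libraries overlapped (-0.02, adjusted p = 0.948), while the test against TPR1-GFP gave -1.25 (adjusted p = 0.00376). NIMIN1 and NIMIN2, whose proteins bind NPR1, differed from Col-0 by -0.63 and -0.29 (adjusted p = 0.468 and 0.652) and from TPR1-GFP by -3.74 and -2.99 (adjusted p = 0.00321 and 0.00254). The salicylic acid receptor genes NPR3 and NPR4 differed from Col-0 by 0.06 and 0.01 without passing the test.

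**Figure D2:**
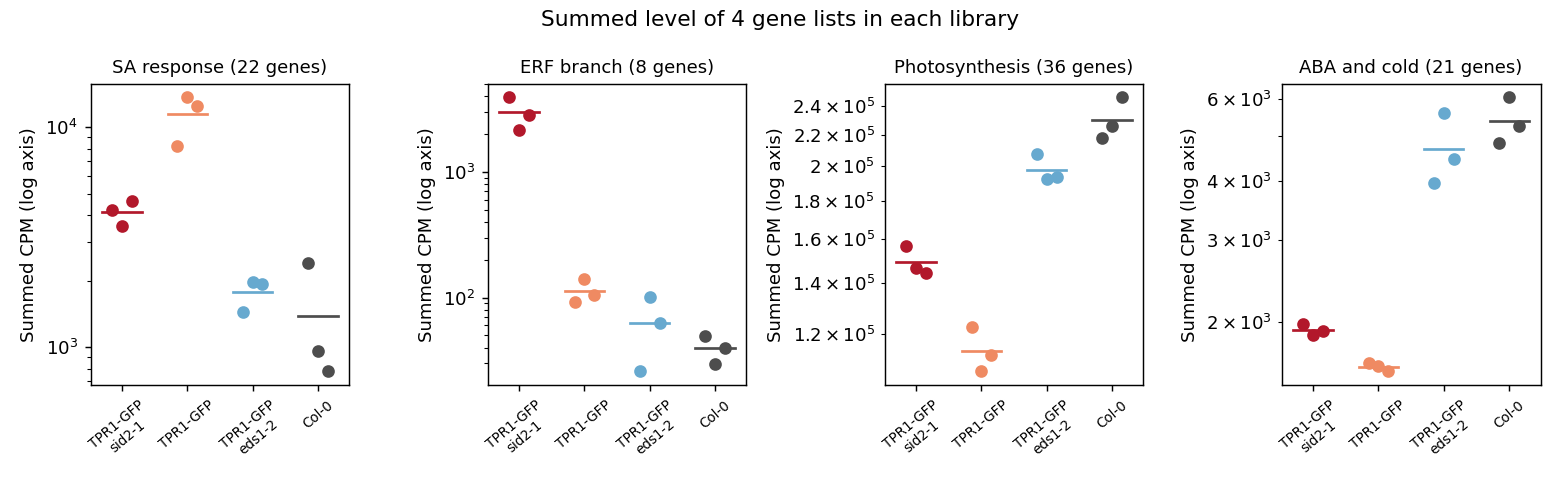
Summed CPM of 4 gene lists in each library, with the genotypes in the order TPR1-GFP sid2-1, TPR1-GFP, TPR1-GFP eds1-2 and Col-0. Points are libraries and lines are group means. The 8 ERF-branch genes summed to 2163 to 3930 CPM in the sid2-1 line and to 29.6 to 49.1 CPM in Col-0, and the 36 photosynthesis genes to 144410 to 156620 CPM in the sid2-1 line and 217940 to 246430 CPM in Col-0.

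The ERF branch of the jasmonate and ethylene response showed the highest median of the lists. All 8 genes tested rose against Col-0, with a median log2 change of 5.73, and all 8 were also higher than in TPR1-GFP, or 5 to 7 in fits that leave out 1 library. PDF1.2A, a secreted plant defensin gene, had 1479, 760.1 and 1066 CPM in TPR1-GFP sid2-1, 5.97, 2.78 and 1.35 CPM in TPR1-GFP, 4.67, 14.9 and 19.5 CPM in TPR1-GFP eds1-2, and 4.55, 1.89 and 4.77 CPM in Col-0. Every sid2-1 line library stood far above all 9 others. The log2 change was 8.19 ± 0.70 against Col-0 (adjusted p = 1.64e-05), 8.35 against TPR1-GFP (adjusted p = 0.000183, and 9.02 without TPR1-GFP replicate 1) and 6.4 against the eds1-2 line (adjusted p = 3.35e-05).

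Its close copies moved with it, and reads of such near-identical genes may be exchanged in counting. PDF1.3 had 1033, 516 and 699 CPM in the sid2-1 line, against 1.00, 0.447 and 0.323 CPM in Col-0 (10.34 ± 0.51, adjusted p = 7.54e-07, and 10.93 without Col-0 replicate 1). PDF1.2C had 765, 417 and 583 CPM in the sid2-1 line, against 0.1, 0.398 and 0.970 CPM in Col-0 (10.14 ± 0.72, and 11.18 without Col-0 replicate 3). PDF1.2B had 184, 103 and 136 CPM in the sid2-1 line, against 0.150, 0.447 and 1.29 CPM in Col-0 (7.71 ± 0.56, and 8.85 without Col-0 replicate 3). In each case replicate 1 was the highest and replicate 2 the lowest of the sid2-1 line, and no library of the groups overlapped. PDF1.3 and PDF1.2B neighbour each other on chromosome 2, and BRIZ2 beside them differed by -0.14 without passing the test, while AT2G26030 on the other side was higher by 0.51 (adjusted p = 0.00517).

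The regulators of the branch rose as well. ORA59, the factor that joins jasmonate and ethylene signals, had 21.8, 14.2 and 15.7 CPM in the sid2-1 line, against 1.05, 0.944 and 2.26 CPM in Col-0 (3.56 ± 0.44, adjusted p = 0.000134). ERF1, an ethylene response factor gene, had 2.31, 1.57 and 3.04 CPM in the sid2-1 line, against 0.550, 0.0994 and 0.242 CPM in Col-0 (2.95, adjusted p = 0.00103, and 3.67 without Col-0 replicate 1). All sid2-1 line libraries were above all Col-0 libraries for both genes, and against TPR1-GFP the log2 changes were 3.17 for ORA59 (adjusted p = 0.00127) and 1.46 for ERF1 (adjusted p = 0.0391). The ERF1 call against TPR1-GFP was lost without any 1 of the 6 libraries compared (adjusted p 0.0548 to 0.132). PR4, a hevein-like gene, had 436, 343 and 359 CPM in the sid2-1 line, against 41.1, 24.7 and 29.3 CPM in Col-0 (3.58 ± 0.46, adjusted p = 0.000184). CHI-B, a basic chitinase gene, had 9.14, 8.63 and 5.23 CPM in the sid2-1 line, against 0.600, 0.696 and 0.404 CPM in Col-0 (3.76, adjusted p = 0.000117). Against TPR1-GFP, PR4 was higher by 1.92 (adjusted p = 0.0136, and 0.058 without TPR1-GFP replicate 3). For CHI-B the test against TPR1-GFP gave 1.32 (adjusted p = 0.0338), a call lost without TPR1-GFP replicate 2 or 3 or without replicate 1 or 2 of the sid2-1 line. The summed level of the list in the sid2-1 line was 7581% of the Col-0 mean. Most of that sum (mean 2987 CPM) came from PDF1.2A, PDF1.3, PDF1.2C and PDF1.2B, with means of 1102, 749, 589 and 141 CPM.

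The MYC branch, the other arm of the jasmonate response, moved less. Of 18 genes 10 rose and 0 fell against Col-0, with a median of 0.73. JAZ5 and JAZ1, which encode jasmonate repressors, rose by 2.37 and 1.38, and ANAC019 and ANAC055, which encode NAC factors, by 2.31 and 2.48 (3.47 for ANAC055 without Col-0 replicate 2). TAT3 rose too, but its call was lost without Col-0 replicate 2 or 3 or any 1 of the sid2-1 line libraries (adjusted p 0.0614 to 0.124). VSP2, a vegetative storage protein gene, had 83.9, 44.8 and 80.4 CPM in TPR1-GFP sid2-1, 496, 369 and 479 CPM in TPR1-GFP eds1-2, and 4.70, 5.81 and 37.0 CPM in Col-0. The sid2-1 line was above Col-0, where replicate 3 was the highest, and below the eds1-2 line. Its log2 change against Col-0 was 2.12 (adjusted p = 0.0177), or 3.73 without Col-0 replicate 3, and the call was lost without replicate 1 of the sid2-1 line (adjusted p = 0.0530). Against the eds1-2 line it was -2.68 (adjusted p = 0.00651). MYC2, the factor that names the branch, did not pass the test (0.28, adjusted p = 0.44). Of 11 jasmonate synthesis genes 5 rose and 2 fell, with LOX4 higher by 1.91, LOX3 by 1.33, AOC3 by 1.60 and OPR3 by 1.13. By sign, 6 changes were positive and 5 negative. The summed level was 77.57% of the Col-0 mean (1908.4 to 2377.4 CPM in the sid2-1 line, 2317.2 to 3069.5 CPM in Col-0). The cyclase genes AOC2 and AOC4 were lower at -0.63 and -0.48, and the AOC2 call was lost without Col-0 replicate 3 or replicate 2 of the sid2-1 line. Left out in turn, the libraries gave 1 to 4 lower genes in that list.

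**Figure D3:**
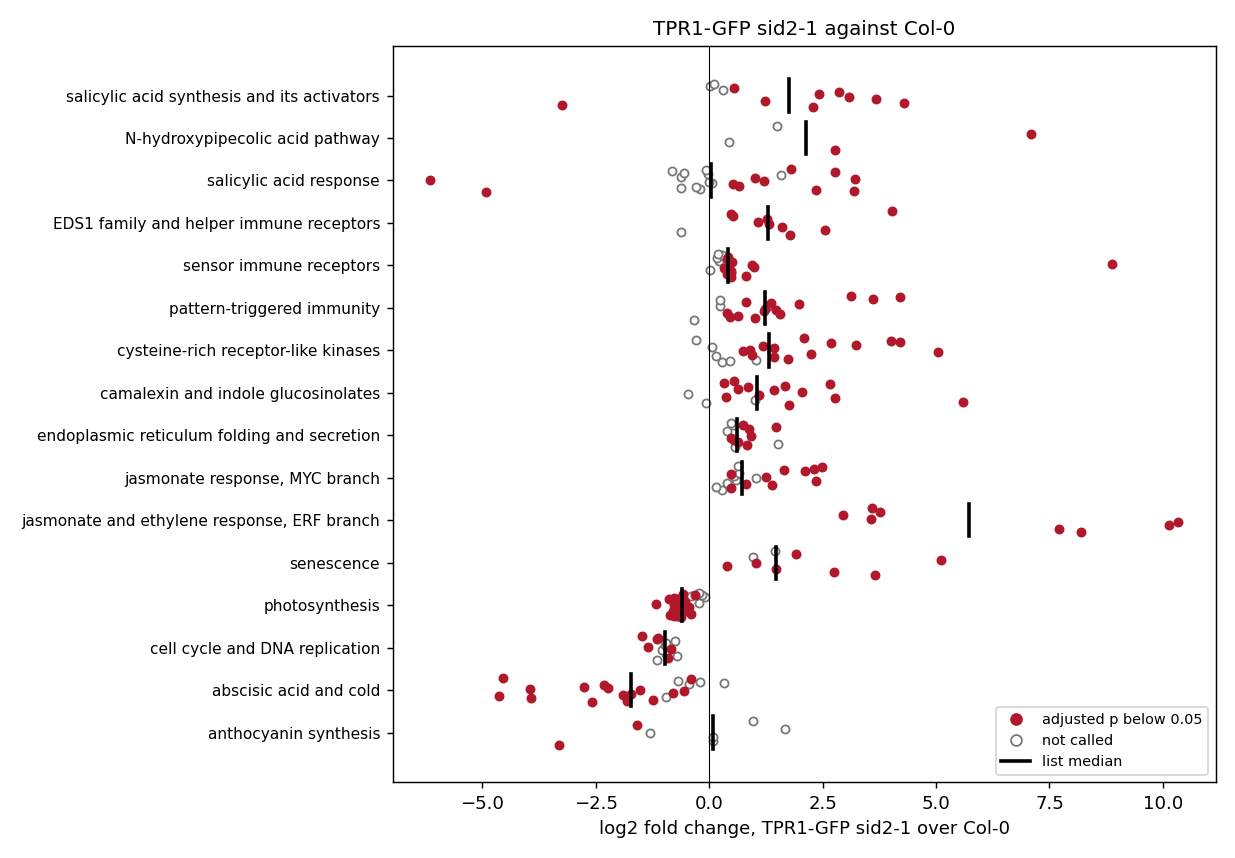
Log2 change of each member of 16 gene lists in TPR1-GFP sid2-1 against Col-0, 1 row per list. Filled points passed the test at adjusted p under 0.05, open points did not, and black bars are list medians. The ERF branch has the highest median (5.73), the abscisic acid and cold list the lowest (-1.73), and the salicylic acid response list lies on both sides of 0.

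The immune regulator EDS1 and its partners were higher in TPR1-GFP sid2-1 than in Col-0. Of 10 genes of the EDS1 family and helper receptors, 9 rose against Col-0 (median 1.29). EDS1 had 128, 135 and 156 CPM in TPR1-GFP sid2-1, against 60.8, 32 and 29.6 CPM in Col-0. The groups did not overlap (1.78 ± 0.23, adjusted p = 0.000198), and against TPR1-GFP the gene differed by -0.10 (adjusted p = 0.782). PAD4, which pairs with EDS1, had 135, 133 and 148 CPM in the sid2-1 line, against 41.6, 18.1 and 11 CPM in Col-0 (2.56 ± 0.38, adjusted p = 0.000469, and 3.25 without Col-0 replicate 1). SAG101, the other partner, had 52.9, 56.7 and 57.5 CPM in the sid2-1 line, against 22.2, 20.0 and 13.3 CPM in Col-0 (1.60, adjusted p = 5.88e-05). Both were above Col-0 in every library. The helper receptor genes ADR1, ADR1-L1 and ADR1-L2 rose by 1.32, 1.08 and 1.27, and AT5G66900 and AT5G66910, of the NRG1 family, by 0.52 and 0.48. The AT5G66910 call was lost without Col-0 replicate 2 or 3 and without replicate 1 or 3 of the sid2-1 line. AT5G66890, of the same family, rose by 4.02 (6.09 without Col-0 replicate 1). AT3G48080, the close copy of EDS1 with which reads may be exchanged, had 5.68, 5.70 and 6.15 CPM in the sid2-1 line, against 16.2, 6.76 and 4.08 CPM in Col-0. Its groups overlapped and it did not pass the test (-0.61, adjusted p = 0.238), except without Col-0 replicate 3 (-0.97, adjusted p = 0.0454). It was lower than in TPR1-GFP by -2.24 ± 0.39 (adjusted p = 0.00486).

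N-hydroxypipecolic acid, made from lysine by ALD1, SARD4 and FMO1, is the mobile signal of systemic immunity. FMO1 had 20.8, 21.4 and 36.3 CPM in TPR1-GFP sid2-1, 7.19, 26.9 and 12.7 CPM in TPR1-GFP leaves, and 0.450, 0.0497 and 0.0808 CPM in Col-0. The sid2-1 line stood above Col-0 in every library and overlapped TPR1-GFP (7.10 ± 0.71, adjusted p = 3.74e-05 against Col-0, and 8.51 without Col-0 replicate 1; 0.75, adjusted p = 0.238 against TPR1-GFP). ALD1 had 8.39, 8.67 and 14.0 CPM in the sid2-1 line, against 4.5, 0.0994 and 0.0808 CPM in Col-0. Replicate 1 was far above the other Col-0 libraries. The log2 change was 2.78 ± 0.89 (adjusted p = 0.0269), or 6.79 without Col-0 replicate 1 (adjusted p = 5.11e-05), and the call was lost without Col-0 replicate 2 (0.061), without Col-0 replicate 3 (0.0644) and without replicate 3 of the sid2-1 line (0.0754). AT5G52810 (SARD4) did not pass the test (0.43, adjusted p = 0.391) except without Col-0 replicate 1 (1.24, adjusted p = 0.00093). UGT76B1, given above, glucosylates N-hydroxypipecolic acid too and completes the list, of which 2 of 4 genes rose (median 2.13), 4 without Col-0 replicate 1 (median 5.17) and 1 without Col-0 replicate 2 (1.66), Col-0 replicate 3 (1.54) or replicate 3 of the sid2-1 line (1.89).

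In the lists of receptors and early signalling most genes rose, beside 22.1% of all genes. Of 17 sensor receptor genes 12 rose and 0 fell (median 0.41), with RPP4, which sits in the receptor cluster of SNC1, higher by 0.80, CHS1 by 0.94 and CHS3 by 0.51. AT1G17615, a TIR-NBS gene, had 2.76, 2.06 and 2.43 CPM in TPR1-GFP sid2-1 and no count in Col-0, so it was at least 51.9-fold higher. Of 18 genes of pattern-triggered immunity 14 rose (median 1.23), with FRK1, a kinase gene used as a marker of flagellin response, at 9.85, 9.37 and 12.3 CPM in the sid2-1 line, against 1.1, 0.497 and 0.162 CPM in Col-0. Its groups did not overlap (4.21, adjusted p = 0.00016, and 5.04 without Col-0 replicate 1). WRKY29 rose by 3.61 (4.68 without Col-0 replicate 1), NHL10 by 3.13, the receptor gene PEPR2 by 1.98 and the kinase gene BIK1 by 1.57. Of 20 cysteine-rich receptor-like kinase genes 14 rose (median 1.31), or 9 without Col-0 replicate 2 and 9 without replicate 3 of the sid2-1 line. CRK13 had 91.4, 92.8 and 124 CPM in the sid2-1 line, against 4.80, 2.78 and 1.86 CPM in Col-0 (5.04 ± 0.33, adjusted p = 3.54e-06). CRK37, CRK39, CRK23 and CRK36 rose by 4.2, 4.01, 3.23 and 2.69, or by 5.76, 4.99, 4.16 and 3.88 without Col-0 replicate 1.

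Genes of defence compounds followed. Of 16 genes of camalexin and indole glucosinolates 13 rose (median 1.05). CYP71A12, a cytochrome P450 gene of the camalexin route, had 68.3, 57.5 and 77.0 CPM in TPR1-GFP sid2-1, against 1.40, 0.745 and 1.98 CPM in Col-0. The groups were far apart (5.59 ± 0.31, adjusted p = 1.23e-06), although reads may be exchanged with the copy CYP71A13. MYB51, the factor for indole glucosinolates, had 63.0, 62.1 and 65.4 CPM in the sid2-1 line, against 19.1, 14.3 and 12.9 CPM in Col-0 (2.04). PAD3, the last enzyme of camalexin synthesis, rose by 2.77 (adjusted p = 0.00162), IGMT1 by 2.66 and CYP79B2 by 1.75. Aliphatic glucosinolates gave 2 higher and 1 lower of 12 (median 0.03, and -0.24 without Col-0 replicate 2). The lower gene, FMO-GSOX1, lost its call (-0.93, adjusted p = 0.0496) with the replicate number as a block (adjusted p = 0.0509), without Col-0 replicate 1 (-0.51, adjusted p = 0.206) and without Col-0 replicate 3 or any 1 of the sid2-1 line libraries. CYP79F2, 1 of the higher genes (0.99), lost its call without Col-0 replicate 2 or 3 or replicate 3 of the sid2-1 line (adjusted p 0.0569 to 0.0768). In the penetration and cell death list 8 of 9 rose (median 0.76), or 5 without Col-0 replicate 2. MLO6 and MLO12, which limit resistance to powdery mildew, also lost their calls without Col-0 replicate 1 (adjusted p = 0.0535 and 0.0668). Of the genes that rose, BAP2, which restrains cell death, had 9.80, 8.92 and 11 CPM in the sid2-1 line, against 0.500, 0.0497 and 0.283 CPM in Col-0 (5.13 ± 0.43, and 5.77 without Col-0 replicate 1). BAP1, its relative, had 7.89, 8.67 and 9.32 CPM in the sid2-1 line, against 1.95, 1.84 and 0.768 CPM in Col-0 (2.53, adjusted p = 0.000225), and PEN1, a syntaxin gene, rose by 0.76.

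Chaperone and secretion proteins of the endoplasmic reticulum carry secreted defence proteins such as PR1. Of 14 of their genes 8 rose against Col-0 (median 0.61), beside 22.1% of all genes. All 14 rose without Col-0 replicate 1, which held the highest Col-0 value for every member, and 4 rose without Col-0 replicate 2 or 3 or without replicate 3 of the sid2-1 line. BZIP60, the factor that answers unfolded proteins, rose by 0.87 (adjusted p = 0.00132) and ERDJ3A, a co-chaperone gene, by 1.47 (2.22 without Col-0 replicate 1). CRT3, a calreticulin gene, had 292, 270.2 and 320.2 CPM in TPR1-GFP sid2-1, 521, 673 and 766 CPM in TPR1-GFP leaves, and 251, 116 and 101 CPM in Col-0. The sid2-1 line lay between them without overlap (0.92 against Col-0, adjusted p = 0.0233, a call lost without Col-0 replicate 2 or 3 or replicate 1 or 3 of the sid2-1 line). Tested directly, 10 of the 14 were lower than in TPR1-GFP, or 2 to 10 in fits that leave out 1 library, and 14 were higher than in the eds1-2 line. Over all genes 7.14% were lower than in TPR1-GFP and 19.5% higher than in the eds1-2 line.

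**Figure D4:**
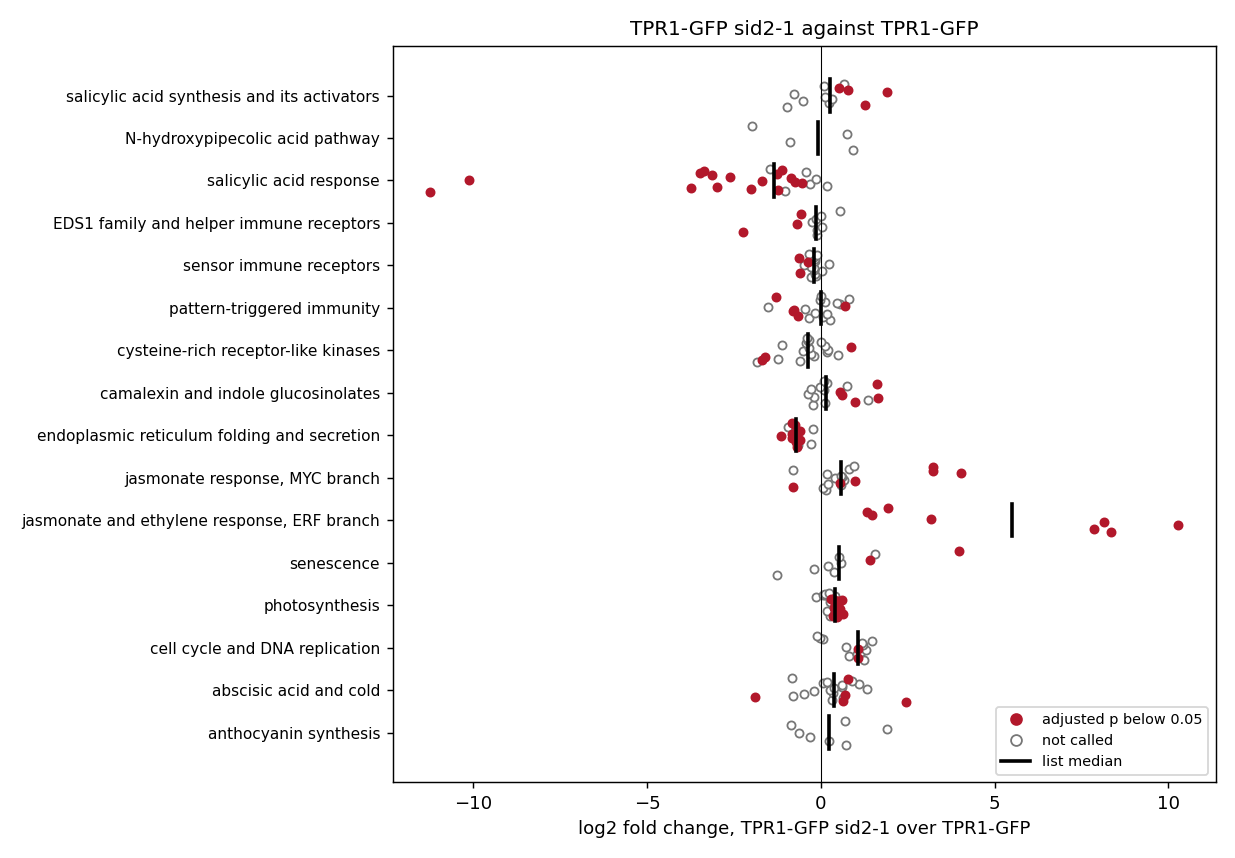
Log2 change of each member of 16 gene lists in TPR1-GFP sid2-1 against TPR1-GFP, 1 row per list. Filled points passed the test at adjusted p under 0.05, open points did not, and black bars are list medians. The ERF branch lies to the right (8 of 8 higher) and the salicylic acid response list to the left (16 of 22 lower).

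Photosynthesis genes were lower than in Col-0. Of 36 genes 31 fell and 0 rose, with a median of -0.59. LHCB1.2, a gene of the main light-harvesting antenna, had 6480.4, 6674 and 7104 CPM in TPR1-GFP sid2-1, 5766, 4435 and 4978 CPM in TPR1-GFP leaves, and 13056, 15525 and 17144 CPM in Col-0. The sid2-1 line was below every Col-0 library (-1.17 ± 0.13, adjusted p = 5.54e-05). PSBP1, a subunit of the oxygen-evolving complex, had 3864, 3635 and 3647 CPM in the sid2-1 line, against 6076, 6297 and 6786 CPM in Col-0 (-0.78, adjusted p = 4.39e-05). RBCS1A, a small subunit of Rubisco, had 11949, 11029 and 12373 CPM in the sid2-1 line, against 19975, 16959 and 23574 CPM in Col-0 (-0.78, adjusted p = 0.00173). No library of the groups overlapped for these genes. PSBQ2, PSAH2 and LHCB6, of photosystem II, photosystem I and the antenna, were lower at -0.87, -0.79 and -0.89. The summed level was 64.89% of the Col-0 mean in the sid2-1 line, 49.56% in TPR1-GFP and 85.97% in the eds1-2 line. Against TPR1-GFP, 25 of the 36 were higher in the sid2-1 line, or 16 to 26 in fits that leave out 1 library.

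Genes of abscisic acid and cold fell further. Of 21 genes 16 fell and 0 rose against Col-0 (median -1.73). RD29A, a drought and cold marker, had 37.2, 39.3 and 38.6 CPM in TPR1-GFP sid2-1, against 522, 719 and 497 CPM in Col-0 (-3.92 ± 0.35, adjusted p = 1.86e-05). Its sid2-1 line libraries lay within a narrow band far below Col-0, and against TPR1-GFP it did not pass the test (0.63, adjusted p = 0.186). COR15A, whose protein shields chloroplast membranes in the cold, had 107, 98.4 and 120.2 CPM in TPR1-GFP sid2-1, 27.1, 15.7 and 17.0 CPM in TPR1-GFP leaves, and 510.5, 656 and 769.7 CPM in Col-0. It was lower than in Col-0 (-2.57 ± 0.22, adjusted p = 1.17e-05) and higher than in TPR1-GFP (2.44 ± 0.22, adjusted p = 0.000188), with no overlap in either test. KIN1, a cold-induced gene with the near copy KIN2, had 0.954, 0.908 and 0.642 CPM in the sid2-1 line, against 12.3, 22.2 and 26.7 CPM in Col-0 (-4.63). CBF1 and CBF3, the factors that switch on the cold genes, were lower at -3.95 and -2.77 and GOLS3, a galactinol synthase gene, by -4.53. The summed level was 35.69% of the Col-0 mean.

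Within the TOPLESS family the native relatives of TPR1 were lower. TPR3 had 4.47, 5.57 and 5.40 CPM in TPR1-GFP sid2-1, against 30.8, 28.7 and 30.8 CPM in Col-0 (-2.54 ± 0.16, adjusted p = 2.25e-06). TPL, the founding member, had 40.4, 51.9 and 46.1 CPM in the sid2-1 line, against 105, 112 and 90.6 CPM in Col-0 (-1.15, adjusted p = 0.00112). TPR2 had 27.5, 29.2 and 27.3 CPM in the sid2-1 line, against 64.5, 73.3 and 55.2 CPM in Col-0 (-1.2, adjusted p = 0.000131). These genes did not overlap between the groups, while TPR4 did and missed the call (-0.07, adjusted p = 0.616). DND1 and DND2, ion channel genes reported as TPR1 targets, did not pass the test (0.18 and 0.26, adjusted p = 0.201 and 0.128).

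In the main fit more genes of the growth lists fell than rose, beside 22.1% called higher and 19.9% called lower over all genes. Of 16 auxin and expansion genes 2 rose and 7 fell (median -0.59), with 3 falling without Col-0 replicate 2 and 4 without replicate 3 of the sid2-1 line. Their summed level in the sid2-1 line was 100.7% of the Col-0 mean. XTH31, a cell wall enzyme gene, had 4.22, 2.11 and 1.52 CPM in TPR1-GFP sid2-1, against 22.0, 16.1 and 37.5 CPM in Col-0 (-3.31), and the expansin genes EXPA1 and EXPA4 rose by 1.15 and 0.87. IAA29, an auxin repressor gene, was lower at -1.60, a call lost with the replicate number as a block (adjusted p = 0.0535), without Col-0 replicate 2 (0.135) and without replicate 2 or 3 of the sid2-1 line. Of 14 cell cycle genes 6 fell (median -0.96), but the count rested on single libraries. It was 1 without Col-0 replicate 3, which held the highest Col-0 value for all 14, 1 without replicate 1 of the sid2-1 line, 2 without its replicate 2 and 13 without its replicate 3. PCNA1, a replication clamp gene, was lower at -1.48 (adjusted p = 0.00535).

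Of 9 senescence genes 7 rose (median 1.47), beside 22.1% called higher and 19.9% called lower over all genes. SAG13 had 93.4, 66.9 and 92.2 CPM in TPR1-GFP sid2-1, against 12.4, 3.73 and 3.96 CPM in Col-0 (3.67, and 4.45 without Col-0 replicate 1), and WRKY45, SAG21 and NYE1, a gene of chlorophyll breakdown, rose by 5.10, 2.75 and 1.47. CHS, the first enzyme of flavonoid synthesis, had 4.27, 4.46 and 6.32 CPM in TPR1-GFP sid2-1, 145 CPM in each TPR1-GFP eds1-2 library, and 38.8, 24.4 and 87.8 CPM in Col-0. It was lower than in Col-0 (-3.32, adjusted p = 0.000935, and -2.64 without Col-0 replicate 3), as was PAP1, a MYB factor gene of the anthocyanin pathway (-1.58, and -0.95 without Col-0 replicate 3). These were the 2 of 7 anthocyanin genes that fell against Col-0. The other 5 did not pass the test, 4 of the 7 changes were positive, and the median was 0.08. All 7 were lower than in the eds1-2 line. The summed level was 15.43% of the Col-0 mean in the sid2-1 line and 596% in the eds1-2 line. Of 7 heat-shock genes 3 rose and 1 fell, with HSP90.1 higher by 2.29 (2.97 without Col-0 replicate 1), HSP17.4 by 3.18 (4.33 without Col-0 replicate 1 and 2.53 without replicate 3), HSP70 by 1.51 and HSP18.2 lower at -2.06. Of 12 clock genes 6 rose, among them RVE8 by 1.12, RVE1 by 1.00 and TOC1 by 0.67.

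Marker genes were read for other organs and for leaf cell types. None of 5 root genes was in the table, and 1 of 5 floral genes, AG, was tested and fell. Of 6 epidermis and trichome genes 3 fell (sums 349.08 to 364.75 CPM in TPR1-GFP sid2-1, 466.89 to 652.2 CPM in Col-0), of 9 vascular genes 3 rose (371.07 to 422.12 CPM in TPR1-GFP sid2-1, 294.87 to 409.54 CPM in Col-0), and of 5 guard-cell genes 1 fell (96.214 to 107.45 CPM in TPR1-GFP sid2-1, 105.21 to 124.58 CPM in Col-0). The epidermal identity factor gene ATML1 had 57.6, 72.1 and 72.2 CPM in the sid2-1 line, against 95.3, 151 and 146 CPM in Col-0 (-0.96), and the guard-cell potassium channel gene KAT1 had 12.3, 13.5 and 13.8 CPM in the sid2-1 line, against 27, 43.1 and 37.3 CPM in Col-0 (-1.44). Neither overlapped between the groups. The vascular genes that rose were SWEET11, SWEET12 and APL. Median log2 changes were -0.91 for the epidermis and trichome genes, -0.34 for the vascular genes and 0.03 for the guard-cell genes. Of the 9 vascular genes 6 had a negative change, and of the 5 guard-cell genes 3 had a positive one, unlike KAT1. Over all genes 22.1% were called higher and 19.9% lower. The part of such cells in the results was not tested.

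Among called genes whose groups did not overlap and whose higher group averaged at least 1 CPM, the 10 with the highest log2 change against Col-0 were led by PDF1.3 and PDF1.2C and held 6 genes without a count in Col-0, AT1G67635, AT1G13480, AT1G17615, AT1G29090, AT5G44380 and AT1G65481, at least 64.2, 52.5, 51.9, 50.4, 50.4 and 35.5-fold higher. AT5G44380, a berberine bridge enzyme-like gene, lies near PDF1.2A on chromosome 5. MPL1, a lipase gene, had 11.4, 12.7 and 11.8 CPM in the sid2-1 line, and its 883 counts over the 3 libraries stood against 2 in Col-0 (ratio 388, counting interval 107 to 3210). It was also higher than in TPR1-GFP (4.51, adjusted p = 2.23e-05). AT5G63225 had 923 counts in the sid2-1 line against 1 in Col-0 (ratio 812, interval 145 to 32100; fitted log2 change 9.24, or 11.26 without Col-0 replicate 1), with 12.1, 11.9 and 13.3 CPM in the sid2-1 line. MPL1 and AT5G63225 were close to absent in Col-0 and even among the sid2-1 line libraries.

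By the same criteria, the lowest changes beside PR1, WRKY38, KIN1 and GOLS3 included those of LTP3, ESM1 and MBP1. LTP3, a lipid transfer protein gene, had 1 count in the sid2-1 line and 138 in Col-0 (ratio of Col-0 over the sid2-1 line 157, interval 27.7 to 6240). Its fitted log2 change was -6.72, or -4.94 without Col-0 replicate 3 and -8.61 without replicate 1 of the sid2-1 line. ESM1 encodes epithiospecifier modifier 1 and MBP1 encodes myrosinase-binding protein 1. ESM1 had 95.5, 126 and 159 CPM in TPR1-GFP sid2-1, 164, 121 and 112 CPM in TPR1-GFP leaves, and 3114, 2806 and 2760.2 CPM in Col-0. The sid2-1 line overlapped TPR1-GFP and stood far below Col-0 (-4.51 ± 0.23, adjusted p = 6.61e-07). MBP1 had 13.5, 7.39 and 9.02 CPM in the sid2-1 line, against 87.6, 507 and 122 CPM in Col-0, where replicate 2 was the highest (-4.59, and -3.40 without it). It was higher than in TPR1-GFP by 4.66 (adjusted p = 0.00717). GIS, a zinc finger gene of trichome formation, had 0.251, 0.0826 and 0 CPM in the sid2-1 line, against 3.3, 1.49 and 3.03 CPM in Col-0 (-4.67, or -5.95 without replicate 1 and -3.98 without replicate 3 of the sid2-1 line). AT3G21330 and AT4G01390 completed the 10 lowest at -4.77 and -4.54 (-2.98 for AT4G01390 without Col-0 replicate 1).

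For the tests against TPR1-GFP and the eds1-2 line the same criteria were used, but only among genes also called against Col-0. Against TPR1-GFP, PDF1.2C had the highest change of these genes (10.28), and PDF1.2A (8.35) and PDF1.3 (8.16) were also among the 5 highest. The others were defensin-like LCR67, with 207 counts in the sid2-1 line and 0 in TPR1-GFP (at least 82.2-fold higher), and AT5G61160, which had 22.8, 27.2 and 29 CPM in the sid2-1 line, 0, 0.258 and 0 CPM in TPR1-GFP leaves, and 0.200, 0 and 2.30 CPM in Col-0 (4.86 against Col-0, and 7.97 without Col-0 replicate 3). In the other direction ARD, an acireductone dioxygenase gene, had no count in the sid2-1 line, against 1200 in TPR1-GFP (at least 336-fold lower) and 51 in Col-0. The carboxypeptidase-like gene scpl16 had 1.51, 1.53 and 1.35 CPM in TPR1-GFP sid2-1, 23.4, 26.9 and 28.3 CPM in TPR1-GFP leaves, and 11.5, 4.03 and 1.74 CPM in Col-0. It was lower than in TPR1-GFP (-4.17, adjusted p = 0.00148), while its call against Col-0 (-1.96) was lost without Col-0 replicate 1 (-0.96, adjusted p = 0.077) and without replicate 2 or 3 of the sid2-1 line. Against the eds1-2 line ARI12, a gene of the ARIADNE family, had 1142 counts in the sid2-1 line and 0 in the eds1-2 line (at least 331-fold higher). AT4G11340, a TIR-NBS-LRR receptor gene, had 6.03, 5.99 and 8.11 CPM in TPR1-GFP sid2-1, 3.41, 2.75 and 6.09 CPM in TPR1-GFP, no count in TPR1-GFP eds1-2 (at least 147-fold higher in the sid2-1 line), and 1 count in Col-0 (ratio 444, interval 79.4 to 17600).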

How the data were processed

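RNA from leaves was sequenced and the authors deposited 1 table with a count of reads per gene for each of the 12 libraries. TopHat2, HTSeq, limma and the genome build TAIR10 are named in the submitters' processing notes, without versions. Strand use in counting is not given in the sources used here, so reads of a gene and an antisense partner cannot be told apart. The table also holds log2 columns and other values of the authors' own comparisons, which were not used. Its lowest gene total is 101 counts, and 18777 gene codes were found in the reference annotation (TAIR10.1).

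Counts were tested in R 4.3.3 with edgeR 4.0.16 (quasi-likelihood, TMM scaling, filterByExpr, which kept 18877 of 18884 genes) on all 12 libraries with genotype as the factor, and adjusted by Benjamini-Hochberg, with calls at under 0.05. The standard error is the absolute log2 change over the square root of F. Library totals were 19628974 to 32018583 counts, which limits the precision of genes with few counts. Counting intervals are exact at 95% and floors of 3 counts over a group stand for no count. Both cover counting error only. On simulated counts for the comparison with Col-0, with 18877 genes, the test recovered 98% and 96% of genes changed by 2 log2 units up and down and 62% and 80% of those changed by 1, and called 0.0429% of unchanged genes. Whether these shares hold where 42.1% of genes are called, as against Col-0, was not tested. Whether they hold where 1 Col-0 library stands apart was not tested either. Alternatives were DESeq2 1.42.0, other scalings, no filter, the 6 libraries alone, the replicate number as a block and each library left out.

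Deviations from the group means of same-numbered TPR1-GFP sid2-1 and Col-0 libraries correlated at 0.172, 0.220 and 0.309, so the labels' numbers were taken to pair them. The main test did not use this pairing, which entered only through the replicate block. Same-numbered libraries correlated at -0.272, -0.136 and -0.151 with TPR1-GFP, and at -0.333, -0.0785 and 0.163 with the eds1-2 line. Unlike-numbered libraries of the sid2-1 line and Col-0 correlated at -0.266 to 0.0929. Replicate 1 of the sid2-1 line correlated at 0.383 with replicate 2 of the eds1-2 line and at 0.174 with TPR1-GFP replicate 2. The labels do not say what a replicate number marks, so the pairing remains uncertain. The block applied the same numbers to all 4 genotypes. Members and gene lists were chosen with earlier results of these data known. Genes named were the defining genes of the lines, all members of the salicylic acid synthesis, N-hydroxypipecolic acid, EDS1, TOPLESS and DND lists, up to 5 called members with the largest change in the other lists, and the 10 highest and 10 lowest among called genes whose groups did not overlap and whose higher group averaged at least 1 CPM. From the tests against TPR1-GFP and the eds1-2 line, up to 5 genes in each direction by the same criteria were eligible. These also had to be called against Col-0. 1 of the promoters planned for printing is not reported here. The promoter of PDF1.2A and the GCC-box, and ORA59, ERF1, PR4, WRKY70, NIMIN1, NIMIN2, NPR1, NPR3, NPR4, COR15A, RBCS1A and MYC2 were chosen after their values were seen. JAZ1 was also named outside the rule.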

Additional observations from a re-analysis of the deposited data

How the results depend on the processing

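Scaling moved the split of calls more than the number. With the library total only, TPR1-GFP sid2-1 against Col-0 gave 6224 higher and 1910 lower (76.52% of calls higher, against 52.62%), TPR1-GFP sid2-1 against TPR1-GFP gave 1414 higher and 2293 lower (38.14%, against 57.63%), and TPR1-GFP sid2-1 against TPR1-GFP eds1-2 gave 70.04% higher, against 56.72%. Upper-quartile scaling gave 3009 higher and 3955 lower in the last test (43.21%). Of the 7940 calls against Col-0, 7891 were shared with DESeq2's size factors and 6088 with the library total only. Leaving out 1 library gave 5685 (without Col-0 replicate 3) to 7546 (without Col-0 replicate 1) calls against Col-0, with 3150 to 4006 higher, 2529 to 3540 lower and 2283 to 2969 of at least 1 log2 unit. Against TPR1-GFP it gave 1172 (without TPR1-GFP replicate 2) to 3643 (without TPR1-GFP replicate 1) calls, with 727 to 2045 higher and 445 to 1598 lower, and without TPR1-GFP replicate 3 or replicate 1, 2 or 3 of the sid2-1 line the higher and lower counts were 854 and 475, 937 and 639, 936 and 498, and 1229 and 798. Against the eds1-2 line it gave 4556 to 6845 calls, with 2700 to 3910 higher and 1777 to 2935 lower. The cause of these differences was not tested. With the replicate number as a block, 4093 genes were higher and 3623 lower against Col-0, 1700 and 1118 against TPR1-GFP, and 3644 and 2709 against the eds1-2 line. Against Col-0 the block ended the calls of IAA29 (given above), FMO-GSOX1 (adjusted p = 0.0509), TAT3 (0.0645), ARD (0.0625) and AT2G26390 (0.0684), and no other call among the genes the naming rule covers. For those genes 1951 values kept their side of the threshold, 104 lost the call and 6 gained it. None of the called genes reversed direction, and direction was not compared for genes without a call. Genes at a few counts, such as PR1 and WRKY38 in the sid2-1 line, are limited by depth.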

Other observations

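The sid2-1 line was higher than each other genotype in 318 genes (1.68%) and lower in 104 (0.551%). These genes had to be called against every other genotype, with each sid2-1 line library beyond every other library. A few of them with no list of their own are given here. They were chosen after their values were seen, so they carry no independent support. DIN11, an oxygenase gene, had 109, 130.4 and 110.5 CPM in TPR1-GFP sid2-1, against 0.1, 0.596 and 2.34 CPM in Col-0, where replicate 3 was the highest. Its log2 change was 6.75 against Col-0 (8.36 without Col-0 replicate 3) and 6.72 against TPR1-GFP (7.82 without TPR1-GFP replicate 2). AT4G16260, a glycosyl hydrolase gene, had 52.8, 55.5 and 49.9 CPM in the sid2-1 line, against 0.600, 0.497 and 0.970 CPM in Col-0 (6.22 against Col-0, 4.19 against TPR1-GFP). AT3G23550, a gene for a MATE efflux protein, had 88.3, 70.7 and 79.6 CPM in the sid2-1 line, against 7.40, 4.72 and 11.4 CPM in Col-0. For each of these genes every sid2-1 line library was above every Col-0 library, which the choice required.

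In the other direction, PCC1, a gene named for its response to pathogens and the clock, had 24.9, 21.6 and 30.9 CPM in TPR1-GFP sid2-1, 359, 499 and 511 CPM in TPR1-GFP, 268, 158 and 374 CPM in TPR1-GFP eds1-2, and 453, 169 and 193 CPM in Col-0. The sid2-1 line lay below all 9 other libraries, which the choice required (-3.40 against Col-0, -2.81 without Col-0 replicate 1, and -4.14 against TPR1-GFP). AT5G03350, a legume lectin family gene, had 29, 33.1 and 51.7 CPM in the sid2-1 line, against 264, 136 and 170.3 CPM in Col-0 (-2.32 against Col-0, -3.47 against TPR1-GFP). Around PDF1.2A on chromosome 5, the berberine bridge enzyme-like genes AT5G44390, AT5G44400 and AT5G44410 were higher than in Col-0 by 2.09, 1.1 and 0.66, while PHT4;6 and AT5G44450 did not pass the test (-0.25 and 0.11). CML43, a calmodulin-like gene on the other side, was higher than in Col-0 by 3.27 (adjusted p = 0.00903) and lower than in TPR1-GFP (-2.04, adjusted p = 0.0225).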
